A study of Homo sapiens with 9 samples.

Results

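The 39 genes described here are NRF2 with its partners, the genes it is best known to switch on, and the enzymes of the glutathione and thioredoxin systems, measured in A549 cells with stable hairpins against PRMT5, MEP50 or GFP. They were taken from a list of symbols, each matched to 1 Ensembl identifier among the 51796 genes of the deposited count table. The aldo-keto reductase, aldehyde dehydrogenase, ABC transporter and glutathione transferase families, which also hold NRF2 targets, were not included. The list itself names symbols and sets no threshold on a measured value, although it was drawn up with earlier results of these data known.

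NRF2, encoded by NFE2L2, is a transcription factor that pairs with a small MAF protein and binds antioxidant response elements near genes for reducing and detoxifying enzymes. KEAP1 holds NRF2 in the cytoplasm and hands it to a CUL3 ubiquitin ligase, and oxidants or electrophiles that modify KEAP1 cysteines let NRF2 escape. A549, an established line of human lung adenocarcinoma, carries a KEAP1 mutation with high NRF2 activity. The glutathione and thioredoxin systems pass electrons from NADPH to peroxides and to oxidised proteins, so that genes for cystine import, glutathione synthesis, reductases and NADPH supply act as 1 chain.

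RNA was sequenced after removal of ribosomal RNA in 3 groups of 3 libraries that the labels call biological replicates. The groups were A549 cells with a hairpin against PRMT5, A549 cells with a hairpin against MEP50, and A549 cells with a control hairpin against GFP. All 3 groups were grown in RPMI with serum and kept under puromycin. PRMT5 is the main enzyme that makes symmetric dimethylarginine, and MEP50, encoded by WDR77, is its partner in the methylosome, so the comparisons ask what the loss of either does to transcript levels. The labels give 1 hairpin group per target and no rescue, so an effect of the target, of the hairpin and of the selected cells cannot be told apart. Nothing says that the replicates came from separate cultures, and p-values then measure only the spread between these libraries.

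Between 20806181 and 31586128 reads per library fell on genes, and 14582 genes had enough reads to be tested. Levels are given as CPM (counts per 1e6 reads on genes, scaled by TMM), with the SD over 3 libraries. PRMT5 stood at 70.2, 67.5 and 69.2 CPM in the PRMT5 knockdown, at 211, 199.7 and 200.4 CPM in the MEP50 knockdown and at 212, 209 and 205 CPM in the GFP control. WDR77 stood at 43.2, 46.9 and 42.1 CPM in the PRMT5 knockdown, at 13.6, 10.7 and 13.3 CPM in the MEP50 knockdown and at 39.2, 39.6 and 39.3 CPM in the GFP control. Each target was therefore lowest in the libraries labelled with its own hairpin. The epithelial keratin KRT8 averaged 2087 ± 24.1 CPM, 1932 ± 58.0 CPM and 3223 ± 76.4 CPM in the PRMT5 knockdown, MEP50 knockdown and GFP control libraries, and CDH1, the epithelial cadherin, averaged 34.9 ± 2.44 CPM, 75.6 ± 8.50 CPM and 40.1 ± 1.64 CPM in the same groups. EPCAM had 3 to 7 reads per library and KRT19 had at most 2, counts that are not read as absence, since what the counting left out is not given in the sources used here. CDKN2A, which is deleted in this line, had 0 reads in all 9 libraries. Blood and endothelial markers summed to at most 0.27 CPM in any library, and 5 fibroblast genes to 10.9 to 11.7 CPM in the PRMT5 knockdown, 26.4 to 28.0 CPM in the MEP50 knockdown and 11.2 to 13.2 CPM in the GFP control. Within these sums LUM fell and COL1A1 rose after PRMT5 knockdown (log2 fold change -3.06 ± 0.22 and 0.59 ± 0.11, edgeR adjusted p = 2.01e-15 and 9.41e-06). Both rose after MEP50 knockdown (0.61 ± 0.15 and 1.44 ± 0.10, adjusted p = 0.000845 and 1.47e-15). Reads outside genes made up 13.7 to 14.5% of counted reads in the PRMT5 knockdown, 12.3 to 13.8% in the MEP50 knockdown and 11.9 to 12.4% in the GFP control. KRT8 was thus lower in both knockdowns while CDH1 was higher after MEP50 knockdown (0.92 ± 0.064 on the log2 scale, edgeR adjusted p = 8.73e-14) and lower after PRMT5 knockdown (-0.20 ± 0.067, adjusted p = 0.0131). The part of these markers and of the reads outside genes in the results below was not tested. In bulk RNA, fewer cells that express a gene and less RNA per cell cannot be told apart.

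The antioxidant response element has the core TGACNNNGC, usually followed by A. This core was searched on both strands in RefSeq promoter windows (GRCh38.p14, from 250 bases before to 50 after each annotated start). Windows were found for 30 of the 39 genes, and 11 of these 30 (36.7%) held the core, against 16.1% of 27305 genes with a window. The core followed by A, a subset of these matches, was held by 6 of the 30 (20%), against 3.94% of all genes. Stretches of 41 bases upstream of a start are printed for genes that changed in the knockdowns, to show which letters stand there. They run 5' to 3' along the gene's own strand, with the core in capitals; a core that reads GC first lies on the opposite strand.
GPX2: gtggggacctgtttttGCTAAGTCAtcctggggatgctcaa
GCLM: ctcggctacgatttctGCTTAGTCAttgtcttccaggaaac
KEAP1: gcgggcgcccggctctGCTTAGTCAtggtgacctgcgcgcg
TXNRD1, downstream start: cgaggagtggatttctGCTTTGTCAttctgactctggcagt
TXNRD1, upstream start: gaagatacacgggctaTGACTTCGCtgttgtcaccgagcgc
EPHX1: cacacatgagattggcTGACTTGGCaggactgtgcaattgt
ME1: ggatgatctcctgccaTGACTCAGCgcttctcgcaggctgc
IDH1: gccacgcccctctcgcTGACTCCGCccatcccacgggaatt
PGD: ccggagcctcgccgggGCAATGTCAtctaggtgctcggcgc
MAFF: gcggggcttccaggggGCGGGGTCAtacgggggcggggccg

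The GPX2 stretch lies at chr14:64942843-64942883 on the minus strand, with the first base of its core 122 bases before the annotated start. The GCLM stretch (chr1:93909440-93909480, minus strand) has its core 34 bases before the start, and the KEAP1 stretch (chr19:10502778-10502818, minus strand) 31 bases before it. GCLM and KEAP1 share the same core of 9 letters with the A beyond it. A second KEAP1 core lies 54 bases before the same start. TXNRD1 has annotated starts far apart, and its stretches lie at chr12:104286914-104286954 (core 102 bases before the downstream start) and chr12:104215664-104215704 (core 99 bases before the upstream start), both on the plus strand. The EPHX1 stretch is chr1:225825260-225825300 (plus strand, 78 bases before the start), and that of ME1 is chr6:83431164-83431204 (minus strand, 137 bases before it). The IDH1 stretch is chr2:208255190-208255230 (minus strand, 143 bases before the start), that of PGD chr1:10398847-10398887 (plus strand, 201 bases before it) and that of MAFF chr22:38201856-38201896 (plus strand, 122 bases before it). Besides these, CBR1 had a core upstream of its start, and PIR had one downstream of its start. Of 20 genes with a window that were lower in at least 1 knockdown, 9 held a core, and of 7 that were higher in at least 1 and lower in none, 1 did (KEAP1). TRIM16, called in opposite directions, is counted with the lower genes. No window was found for SLC7A11, FTH1 and CBR3, which were higher in both knockdowns, nor for GSR, GSS, HMOX1, PRDX1, PRDX6 and TXN2. Whether the core goes with the direction of change was not tested. A match is a description of letters, and windows without one may lie apart from the elements of a gene.

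Of the 37 tested genes, 17 were lower in both knockdowns, with the glutathione peroxidase GPX2 and the isocitrate dehydrogenase IDH1 among the strongest falls of each. A set of 7, with the cystine importer SLC7A11, the catalytic ligase subunit GCLC and ferritin heavy chain FTH1, was higher in both. The other 2 of the 39 genes had too few reads to be tested. After PRMT5 knockdown 8 of the 37 were higher and 23 lower at an adjusted p below 0.05 (edgeR's quasi-likelihood test, adjusted over all 14582 genes), where the background over all genes was 26.1% higher and 24.9% lower. Expressed as shares, 21.6% of the tested members were higher and 62.2% lower. After MEP50 knockdown 10 were higher and 19 lower, or 27.0% and 51.4%, against a background of 26.5% higher and 25.2% lower. The share of lower genes was thus above the background in both comparisons, and the share of higher genes was near or under it. The background, here and below, is all genes tested and was not matched to the members for level. A small change is called more readily in a gene with many reads, and the part of level in these shares was not tested. The median log2 fold change of the members was -0.19 after PRMT5 knockdown and -0.12 after MEP50 knockdown, while the median over all genes tested was 0.0032 and -0.0019. Most changes were small, and the log2 fold changes ran between -2.49 and 0.53 after PRMT5 knockdown and between -1.43 and 0.48 after MEP50 knockdown. Both comparisons use the same 3 control libraries, so likeness between them is no independent evidence. How many of all genes were called alike in both was not counted, so the 17 and the 7 have no background beside them.

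**Figure D1:**
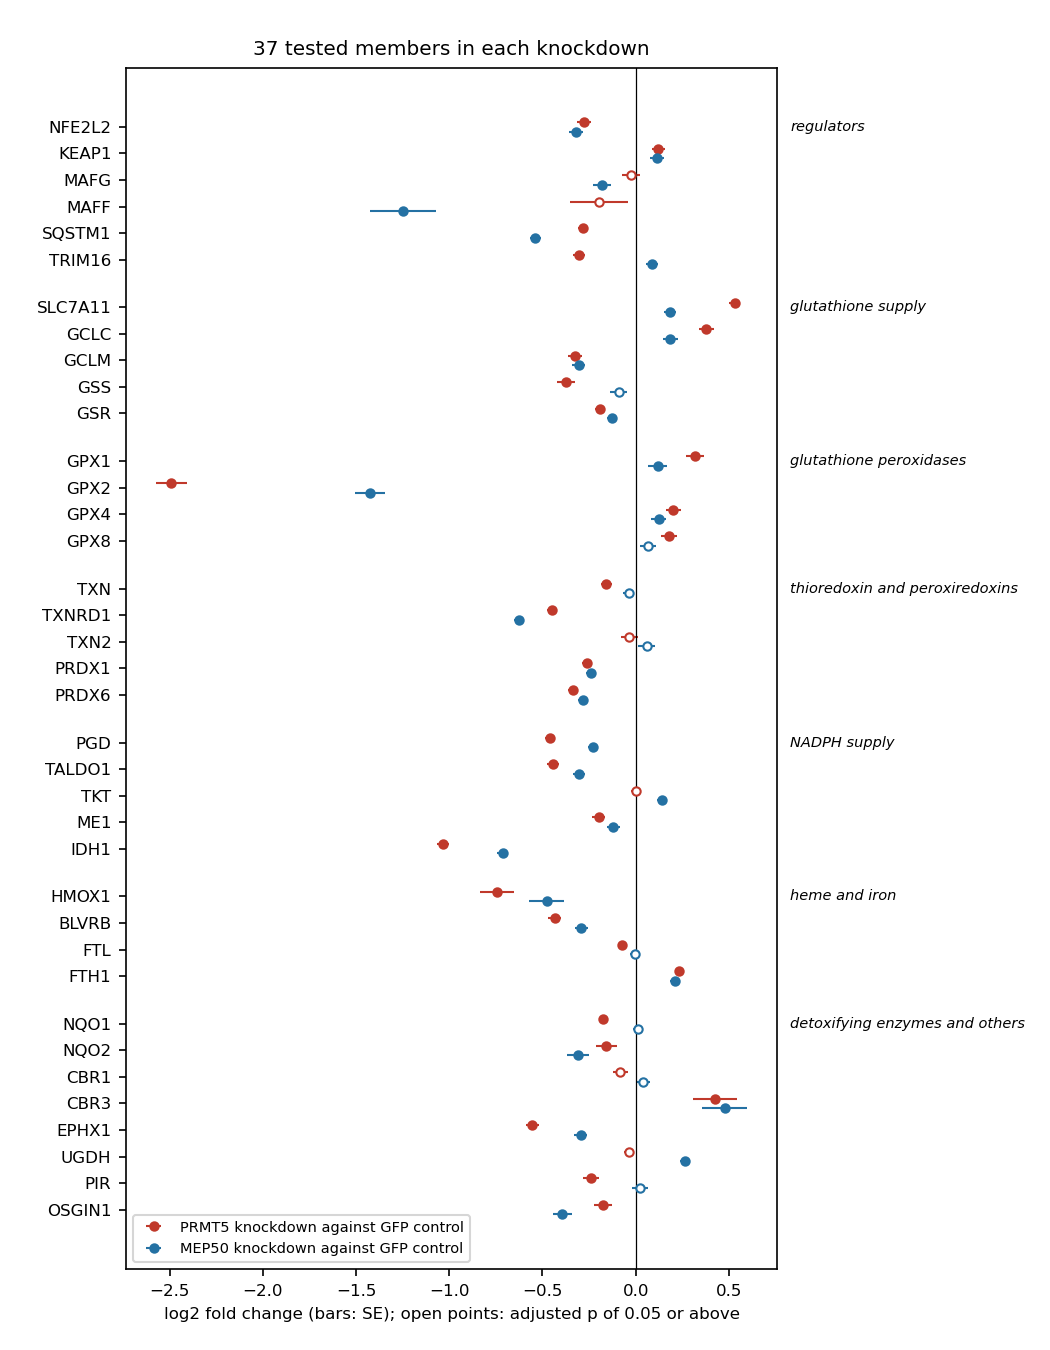
Log2 fold change (x axis, bars are SE) of the 37 tested genes (y axis, grouped by role) in the PRMT5 knockdown and the MEP50 knockdown, each against the GFP control, with 3 libraries a group and open points where the adjusted p was 0.05 or above. Of the filled points, 23 lie left of 0 for PRMT5 knockdown and 19 for MEP50 knockdown, and GPX2 lies farthest left in both.

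Among the regulators, NFE2L2 (ENSG00000116044) itself was lower in both knockdowns and its inhibitor KEAP1 slightly higher. NFE2L2 read 112, 112 and 119 CPM in the PRMT5 knockdown, 108, 111 and 113 CPM in the MEP50 knockdown and 138, 135 and 144 CPM in the GFP control. Every knockdown library lay below every control library. The log2 fold change was -0.28 ± 0.037 (SE) after PRMT5 knockdown and -0.32 ± 0.037 after MEP50 knockdown, with edgeR adjusted p of 3.12e-08 and 1.52e-09. KEAP1 (ENSG00000079999) read 114, 110.0 and 111 CPM in the PRMT5 knockdown, 109.7, 112 and 112 CPM in the MEP50 knockdown and 103, 101 and 103 CPM in the GFP control. Each knockdown lay above the control in every library and the knockdowns overlapped each other, yet the difference from the control was small, with a log2 fold change of 0.12 ± 0.036 (edgeR adjusted p = 0.00471) and 0.12 ± 0.037 (0.00768). The KEAP1 call after PRMT5 knockdown was lost without the first PRMT5 knockdown library (log2 fold change 0.09, edgeR adjusted p = 0.0518), and that after MEP50 knockdown without a filter on low counts (0.10, adjusted p = 0.0526).

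SQSTM1, which encodes the autophagy receptor p62 that binds KEAP1, read 679, 704 and 697 CPM in the PRMT5 knockdown, 608, 582 and 553 CPM in the MEP50 knockdown and 852, 838 and 839 CPM in the GFP control. All 6 knockdown libraries were below the controls, those of the MEP50 knockdown most. The log2 fold change of SQSTM1 was -0.28 ± 0.028 after PRMT5 knockdown and -0.54 ± 0.028 after MEP50 knockdown (edgeR adjusted p = 3.51e-11 and 1.79e-19). MAFF, a small MAF partner of NRF2 and the least abundant tested member per length, read 8.09, 7.16 and 6.59 CPM in the PRMT5 knockdown, 5.12, 2.15 and 3.28 CPM in the MEP50 knockdown and 8.90, 8.19 and 7.86 CPM in the GFP control. The MEP50 knockdown libraries lay below all others and spread widely among themselves, while the PRMT5 knockdown and control libraries overlapped. MAFF fell after MEP50 knockdown, with a log2 fold change of -1.25 ± 0.18 (edgeR adjusted p = 3.8e-07), and after PRMT5 knockdown its value was -0.20 ± 0.15 (adjusted p = 0.311). MAFG, a second small MAF, was at 101 ± 4.72 CPM in the PRMT5 knockdown, 90.9 ± 6.26 CPM in the MEP50 knockdown and 103 ± 6.58 CPM in the GFP control, and was called lower after MEP50 knockdown alone although single libraries overlapped (edgeR adjusted p = 0.0018). TRIM16, a protein of the TRIM family, went in opposite directions, with 139 ± 1.31 CPM in the PRMT5 knockdown, 183 ± 6.44 CPM in the MEP50 knockdown and 172 ± 4.01 CPM in the GFP control. Its log2 fold change was -0.30 ± 0.033 after PRMT5 knockdown (edgeR adjusted p = 4.19e-10) and 0.09 ± 0.033 after MEP50 knockdown (0.0272). The rise after MEP50 knockdown was lost with upper-quartile scaling, with library totals, without a filter and without any 1 of 4 libraries (adjusted p 0.0535 to 0.156). Of the 6 regulators, 1 was higher and 3 lower after PRMT5 knockdown, and 2 were higher and 4 lower after MEP50 knockdown, counts of few genes to be read against the background of 26.1% higher and 24.9% lower after PRMT5 knockdown and 26.5% higher and 25.2% lower after MEP50 knockdown.

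**Figure D2:**
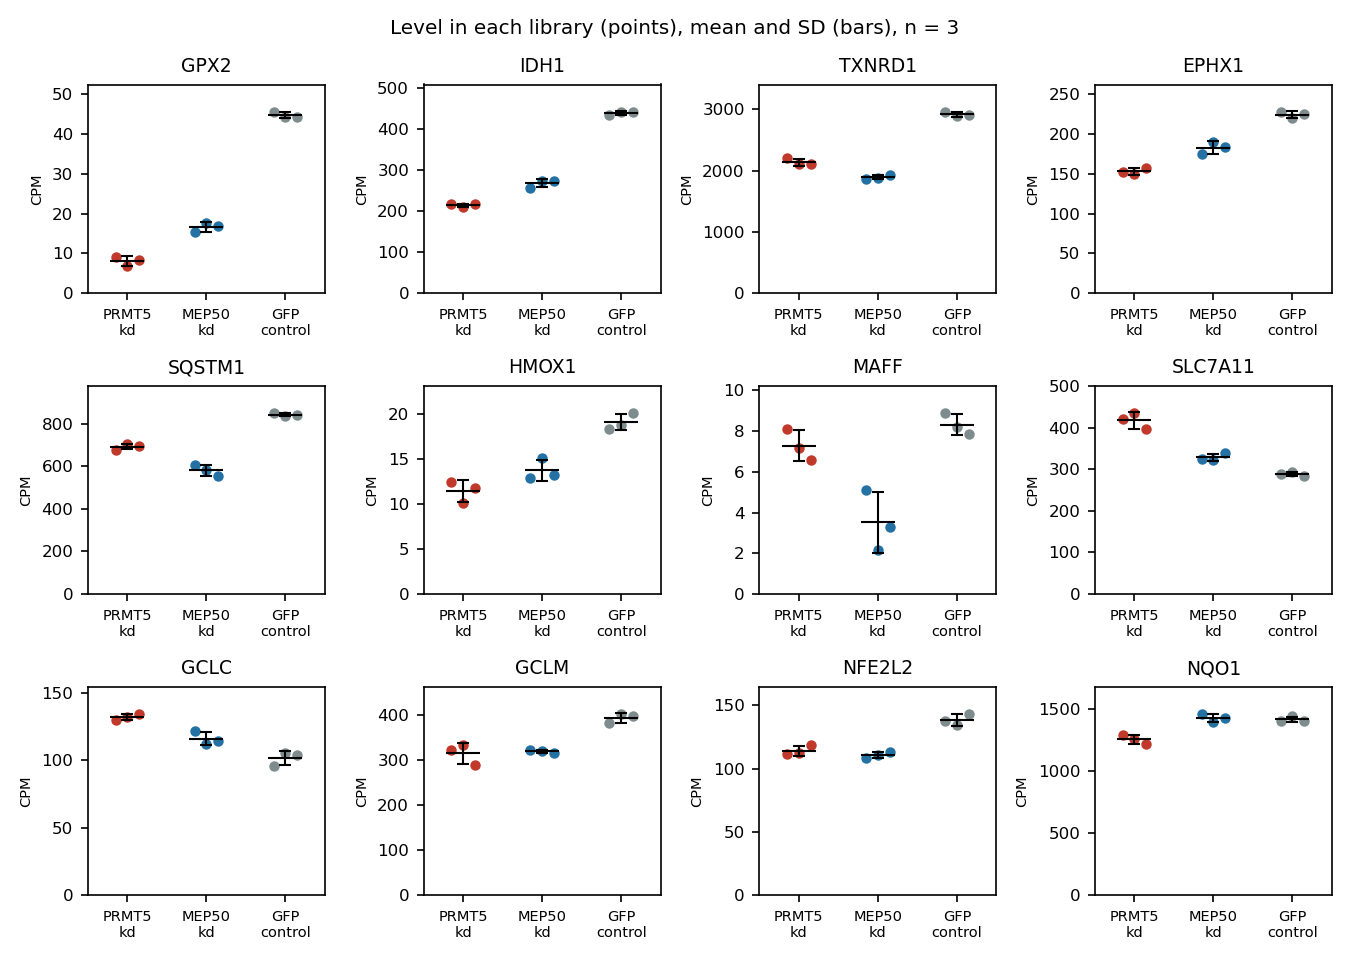
CPM (y axis, from 0) of 12 of the genes in each of the 3 libraries of PRMT5 knockdown, MEP50 knockdown and GFP control (x axis), with the mean and SD as bars (n = 3). All knockdown libraries lie below all control libraries for GPX2, IDH1, TXNRD1, EPHX1, SQSTM1, HMOX1, GCLM and NFE2L2, and above them for SLC7A11 and GCLC.

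In the glutathione supply genes, cystine import and the catalytic ligase subunit were higher in both knockdowns, the modifier subunit and the reductase were lower in both, and the synthetase was called lower after PRMT5 knockdown. SLC7A11 (ENSG00000151012), which encodes the cystine importer xCT, read 421, 436 and 396 CPM in the PRMT5 knockdown, 326, 322 and 338 CPM in the MEP50 knockdown and 288, 294 and 285 CPM in the GFP control. The order PRMT5 knockdown, MEP50 knockdown, control held for every library. The log2 fold change was 0.53 ± 0.031 after PRMT5 knockdown, the largest rise of any member against the control, and 0.18 ± 0.031 after MEP50 knockdown (edgeR adjusted p = 4.56e-18 and 3.67e-06). GCLC, the catalytic subunit of glutamate-cysteine ligase, which makes the first and rate-limiting step of glutathione synthesis, read 130.2, 132 and 135 CPM in the PRMT5 knockdown, 121, 112 and 114 CPM in the MEP50 knockdown and 95.9, 105 and 104 CPM in the GFP control. No 2 of its 3 groups overlapped, with log2 fold changes of 0.38 ± 0.039 and 0.19 ± 0.040 (edgeR adjusted p = 6.79e-11 after PRMT5 knockdown and 0.000125 after MEP50 knockdown). GCLM, the modifier subunit of the same ligase, read 322, 331 and 288 CPM in the PRMT5 knockdown, 321, 319 and 315 CPM in the MEP50 knockdown and 380.4, 402 and 397 CPM in the GFP control. The subunits of 1 enzyme thus moved in opposite directions. GCLM had log2 fold changes of -0.33 ± 0.036 and -0.31 ± 0.036 (edgeR adjusted p = 5.24e-09 after PRMT5 knockdown and 1.93e-08 after MEP50 knockdown).

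GSS, the glutathione synthetase, averaged 54.0 ± 1.81 CPM in the PRMT5 knockdown, 65.8 ± 0.776 CPM in the MEP50 knockdown and 70.0 ± 2.30 CPM in the GFP control, and was called lower after PRMT5 knockdown (log2 fold change -0.37 ± 0.046, edgeR adjusted p = 5.99e-09). After MEP50 knockdown its log2 fold change was -0.09 ± 0.046 (adjusted p = 0.102). GSR, the reductase that returns oxidised glutathione to its thiol form with NADPH, averaged 858 ± 20.8 CPM, 897 ± 22.6 CPM and 981 ± 21.5 CPM in the PRMT5 knockdown, MEP50 knockdown and GFP control. It was lower in both knockdowns by small amounts, with log2 fold changes of -0.19 and -0.13. Of the 5 genes of glutathione supply, 2 were higher and 3 lower after PRMT5 knockdown, and 2 were higher and 2 lower after MEP50 knockdown (background 26.1% and 24.9%, then 26.5% and 25.2%).

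The glutathione peroxidases held the strongest fall of any member next to 3 genes that rose after PRMT5 knockdown, 2 of them also after MEP50 knockdown. GPX2 (ENSG00000176153), an epithelial selenoenzyme best known from the gut that removes hydrogen peroxide, read 9.04, 6.68 and 8.27 CPM in the PRMT5 knockdown, 15.3, 17.7 and 16.9 CPM in the MEP50 knockdown and 45.6, 44.3 and 44.4 CPM in the GFP control. The 3 groups stood apart in every library. GPX2 was 17.8% of the control level after PRMT5 knockdown and 37.2% after MEP50 knockdown, with log2 fold changes of -2.49 ± 0.084 and -1.43 ± 0.078 (edgeR adjusted p = 4.9e-26 and 6.4e-19). GPX1, the widespread cytosolic form, averaged 81.2 ± 5.11 CPM in the PRMT5 knockdown, 71.0 ± 4.02 CPM in the MEP50 knockdown and 65.3 ± 2.03 CPM in the GFP control. Its rise was 0.32 ± 0.048 on the log2 scale after PRMT5 knockdown (edgeR adjusted p = 4.85e-07). The smaller GPX1 rise after MEP50 knockdown, 0.12 ± 0.049 (adjusted p = 0.0437), was lost under DESeq2, under 3 other scalings, without a filter and without any 1 of 5 libraries (adjusted p 0.0538 to 0.168). GPX4, which reduces lipid hydroperoxides in membranes, rose by 0.20 and 0.12 on the log2 scale in the PRMT5 and MEP50 knockdowns (edgeR adjusted p = 4.47e-05 and 0.00961). The GPX4 call after MEP50 knockdown was lost without the second MEP50 knockdown library (0.08, adjusted p = 0.116) or the first control library (0.10, adjusted p = 0.0593). GPX8, an enzyme of the endoplasmic reticulum, rose by 0.18 after PRMT5 knockdown (edgeR adjusted p = 0.000661), and its value after MEP50 knockdown was 0.07 (adjusted p = 0.22). GPX3, the secreted form, had at most 1 read in any library and was not tested.

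The 5 tested members of the thioredoxin system were lower or not called. Among the wider list of thiol enzymes, TXNRD2 and TXNRD3, relatives of TXNRD1, were called higher after PRMT5 knockdown (log2 fold change 0.18 and 0.29, edgeR adjusted p = 0.0164 and 0.0462). PRDX5, another peroxiredoxin, was called higher after MEP50 knockdown (0.14, adjusted p = 0.00185). TXNRD1 (ENSG00000198431), the cytosolic selenoenzyme that reduces thioredoxin with NADPH, read 2198, 2102 and 2102 CPM in the PRMT5 knockdown, 1867, 1873 and 1929 CPM in the MEP50 knockdown and 2960.2, 2893 and 2901 CPM in the GFP control. All knockdown libraries lay below the controls, and those of the MEP50 knockdown lay lowest. The log2 fold change was -0.45 ± 0.024 after PRMT5 knockdown and -0.63 ± 0.024 after MEP50 knockdown (edgeR adjusted p = 1.96e-19 and 3.96e-24). TXN, the cytosolic thioredoxin, averaged 238 ± 6.44 CPM, 259 ± 3.33 CPM and 265 ± 4.97 CPM in the PRMT5 knockdown, MEP50 knockdown and GFP control. It fell after PRMT5 knockdown (-0.16 ± 0.030 on the log2 scale, edgeR adjusted p = 2.26e-05), and its value after MEP50 knockdown was -0.04 ± 0.030 (adjusted p = 0.323). The peroxiredoxins PRDX1 and PRDX6, which reduce peroxides through a reactive cysteine, were lower in both knockdowns. PRDX1 averaged 767 ± 11.8 CPM in the PRMT5 knockdown, 778 ± 6.24 CPM in the MEP50 knockdown and 920.0 ± 13.6 CPM in the GFP control, with log2 fold changes of -0.26 and -0.24. PRDX6 averaged 318 ± 2.45 CPM in the PRMT5 knockdown, 330.2 ± 5.81 CPM in the MEP50 knockdown and 401 ± 6.75 CPM in the GFP control, with log2 fold changes of -0.34 and -0.28. All 4 of these values had edgeR adjusted p of 9e-11 or less. Mitochondrial TXN2 was not called in either comparison (-0.03 and 0.06, edgeR adjusted p = 0.572 and 0.32). PRDX2 is listed with 1 read over the 9 libraries and 4 genes named as its pseudogenes with 28, so no level of PRDX2 is read from this table.

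Enzymes that supply NADPH or feed the pentose phosphate pathway fell in 4 of 5 cases in both knockdowns. IDH1 (ENSG00000138413), the cytosolic isocitrate dehydrogenase that makes NADPH, read 216, 209.7 and 216 CPM in the PRMT5 knockdown, 256, 272 and 273 CPM in the MEP50 knockdown and 433, 439.7 and 442 CPM in the GFP control. Again the 3 groups stood apart in every library. IDH1 was at 48.8% of the control level after PRMT5 knockdown and 61.0% after MEP50 knockdown (log2 fold change -1.03 ± 0.030 and -0.71 ± 0.030, edgeR adjusted p = 1.77e-28 and 6.03e-23). PGD, an NADPH-forming dehydrogenase of the pentose phosphate pathway, averaged 1025 ± 31.2 CPM, 1200.4 ± 39.5 CPM and 1409 ± 29.9 CPM in the PRMT5 knockdown, MEP50 knockdown and GFP control. Its log2 fold changes were -0.46 ± 0.027 and -0.23 ± 0.027. TALDO1, the transaldolase of the same pathway, also fell, with log2 fold changes of -0.44 ± 0.031 and -0.30 ± 0.031. ME1, the cytosolic malic enzyme, fell less, with log2 fold changes of -0.20 and -0.12 (edgeR adjusted p = 3.59e-06 and 0.00309). TKT, the transketolase, was the exception, with 848 ± 4.12 CPM in the PRMT5 knockdown, 936 ± 23.8 CPM in the MEP50 knockdown and 847 ± 18.3 CPM in the GFP control. It rose after MEP50 knockdown (0.14 ± 0.026, edgeR adjusted p = 1.04e-05), while after PRMT5 knockdown its log2 fold change was 0.0017 (adjusted p = 0.963), a value near 0 whose sign changed with the scaling.

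Among the heme and iron members, HMOX1 and BLVRB fell and ferritin heavy chain rose. HMOX1, the inducible heme oxygenase that opens heme to biliverdin, iron and carbon monoxide, was expressed at a low level of 12.5, 10.1 and 11.8 CPM in the PRMT5 knockdown, 12.9, 15.1 and 13.2 CPM in the MEP50 knockdown and 18.4, 18.9 and 20.2 CPM in the GFP control. Both knockdowns lay below the control in every library. The log2 fold change of HMOX1 was -0.74 ± 0.092 after PRMT5 knockdown and -0.48 ± 0.092 after MEP50 knockdown (edgeR adjusted p = 6.91e-09 and 3.11e-05). BLVRB, a biliverdin reductase that also reduces flavins, averaged 119 ± 1.12 CPM in the PRMT5 knockdown, 131 ± 3.45 CPM in the MEP50 knockdown and 160.5 ± 4.74 CPM in the GFP control. It was lower in both, with log2 fold changes of -0.43 and -0.29. The wider list held HMOX2, another heme oxygenase, at 43.7 ± 0.308 CPM in the GFP control. HMOX2 was called in neither knockdown (-0.08 and 0.07, edgeR adjusted p = 0.227 and 0.315). BLVRA, another biliverdin reductase, was lower after PRMT5 knockdown (-0.38, adjusted p = 1.21e-06) and not called after MEP50 knockdown (-0.05, adjusted p = 0.49). The ferritin chains, which store iron, differed from each other. FTH1, the heavy chain with ferroxidase activity, averaged 2740.3 ± 93.2 CPM in the PRMT5 knockdown, 2696 ± 58.2 CPM in the MEP50 knockdown and 2329.5 ± 24.4 CPM in the GFP control. Its log2 fold changes were 0.23 ± 0.025 and 0.21 ± 0.025 (edgeR adjusted p = 1.19e-10 and 1.55e-09). FTL, the light chain, averaged 4513 ± 212 CPM in the PRMT5 knockdown, 4725 ± 50.5 CPM in the MEP50 knockdown and 4739.6 ± 142 CPM in the GFP control. The groups overlapped, and the call of a small fall after PRMT5 knockdown (-0.07 ± 0.026, edgeR adjusted p = 0.0231) rested on single libraries. It was lost without the first PRMT5 knockdown library (-0.05, adjusted p = 0.134) or the third control library (-0.06, adjusted p = 0.108), and without the third PRMT5 knockdown library it was -0.11. Genes named as ferritin pseudogenes held reads equal to 1.81% of those of FTH1 (25 genes) and 0.24% of those of FTL (12 genes). Reads that match a ferritin gene and a pseudogene equally well were not examined, so these shares do not show how many reads were lost.

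Of the 8 detoxifying enzymes and other targets, 1 was higher and 5 lower after PRMT5 knockdown, and 2 were higher and 3 lower after MEP50 knockdown, the second pair of counts being near the background of 26.5% and 25.2% (26.1% and 24.9% after PRMT5 knockdown). EPHX1 (ENSG00000143819), the microsomal epoxide hydrolase, read 152, 149 and 158 CPM in the PRMT5 knockdown, 175, 190.4 and 184 CPM in the MEP50 knockdown and 228, 220.1 and 226 CPM in the GFP control. Its 3 groups did not overlap. The log2 fold change of EPHX1 was -0.55 ± 0.033 after PRMT5 knockdown and -0.30 ± 0.033 after MEP50 knockdown (edgeR adjusted p = 1.04e-17 and 6.41e-10). NQO1, the quinone reductase that is the most used marker of NRF2 activity, read 1293, 1257 and 1222 CPM in the PRMT5 knockdown, 1464, 1401 and 1427 CPM in the MEP50 knockdown and 1409, 1443 and 1402 CPM in the GFP control. The PRMT5 knockdown libraries were below all others, and those of the MEP50 knockdown overlapped the controls. NQO1 fell by a small amount after PRMT5 knockdown (-0.17 ± 0.025, edgeR adjusted p = 2.52e-07), with a value of 0.01 ± 0.025 after MEP50 knockdown (adjusted p = 0.703).

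NQO2, a related quinone reductase, averaged 44.5 ± 1.57 CPM in the PRMT5 knockdown, 40.1 ± 1.46 CPM in the MEP50 knockdown and 49.7 ± 3.64 CPM in the GFP control. It was lower after MEP50 knockdown (-0.31 ± 0.058), and its fall after PRMT5 knockdown (-0.16 ± 0.056, edgeR adjusted p = 0.0173) was lost without the first or the second control library (adjusted p = 0.0604 and 0.125). OSGIN1, a growth inhibitor induced by oxidative stress, fell in both, with log2 fold changes of -0.17 and -0.39. PIR, an iron-binding nuclear protein, fell after PRMT5 knockdown (-0.24 ± 0.043) and was not called after MEP50 knockdown (0.02 ± 0.044). UGDH, which makes the UDP-glucuronate used in glucuronidation, rose after MEP50 knockdown (0.27 ± 0.027, edgeR adjusted p = 3.69e-11) and was not called after PRMT5 knockdown (-0.04 ± 0.027). The carbonyl reductase CBR3 rose in both (0.43 ± 0.12 and 0.48 ± 0.12), at 9.10 ± 0.431 CPM in the PRMT5 knockdown and 9.37 ± 1.13 CPM in the MEP50 knockdown against 6.73 ± 0.569 CPM in the GFP control, whereas its relative CBR1 was called in neither.

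Seen side by side, 17 genes were lower in both knockdowns, 7 were higher in both, and TRIM16 alone was called in opposite directions. The 7 were KEAP1, SLC7A11, GCLC, GPX1, GPX4, FTH1 and CBR3. GSS, TXN, FTL, NQO1 and PIR were lower after PRMT5 knockdown and not called after MEP50 knockdown, and MAFG and MAFF were lower after MEP50 knockdown and not called after PRMT5 knockdown. GPX8 was called higher after PRMT5 knockdown only, TKT and UGDH after MEP50 knockdown only, and TXN2 and CBR1 in neither. The shares of all genes called alike or oppositely in both knockdowns were not counted, so whether these numbers are unusual cannot be said. A call in 1 knockdown and not in the other does not show that they differ, which the direct comparison tests.

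Set directly against the MEP50 knockdown, the PRMT5 knockdown had 10 of the 37 genes higher and 17 lower, or 27.0% and 46.0%, against a background over all genes of 19.2% higher and 20.5% lower (edgeR, adjusted p below 0.05). The median log2 fold change was -0.06 over the members and 0.0012 over all genes tested. GPX2 was lower in the PRMT5 knockdown, where it averaged 7.99 ± 1.20 CPM against 16.6 ± 1.23 CPM in the MEP50 knockdown, a difference of -1.07 ± 0.093 on the log2 scale (edgeR adjusted p = 2.25e-12). MAFF was higher in the PRMT5 knockdown, at 7.28 ± 0.754 CPM against 3.52 ± 1.501 CPM (1.05 ± 0.18, adjusted p = 1.33e-05). TRIM16 (-0.39 ± 0.034), IDH1 (-0.32 ± 0.030), UGDH (-0.30 ± 0.027) and GSS (-0.28 ± 0.047) were the next largest differences toward lower levels in the PRMT5 knockdown, all with an edgeR adjusted p of 4.1e-06 or less. In the other direction stood SLC7A11 (0.35 ± 0.031), SQSTM1 (0.26 ± 0.028), OSGIN1 (0.22 ± 0.049), GPX1 (0.20 ± 0.048), GCLC (0.19 ± 0.039) and TXNRD1 (0.18 ± 0.024), with adjusted p of 0.000898 or less. NQO1, PIR and EPHX1 were lower in the PRMT5 knockdown, with log2 fold changes of -0.19, -0.26 and -0.26. All tested genes of NADPH supply pointed to lower levels in the PRMT5 knockdown, and 4 of the 5 passed the test, ME1 being the exception (-0.08, adjusted p = 0.0579). NFE2L2 (0.04 ± 0.038, adjusted p = 0.387), KEAP1 (0.0059 ± 0.036, 0.919), GCLM (-0.02 ± 0.036, 0.688) and PRDX1 (-0.02 ± 0.025, 0.531) did not pass it. Small direct differences of GSR, FTL, GPX8, NQO2, MAFG, HMOX1 and CBR1 passed the test over all libraries and lost it under at least 1 setting or without at least 1 library.

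**Figure D3:**
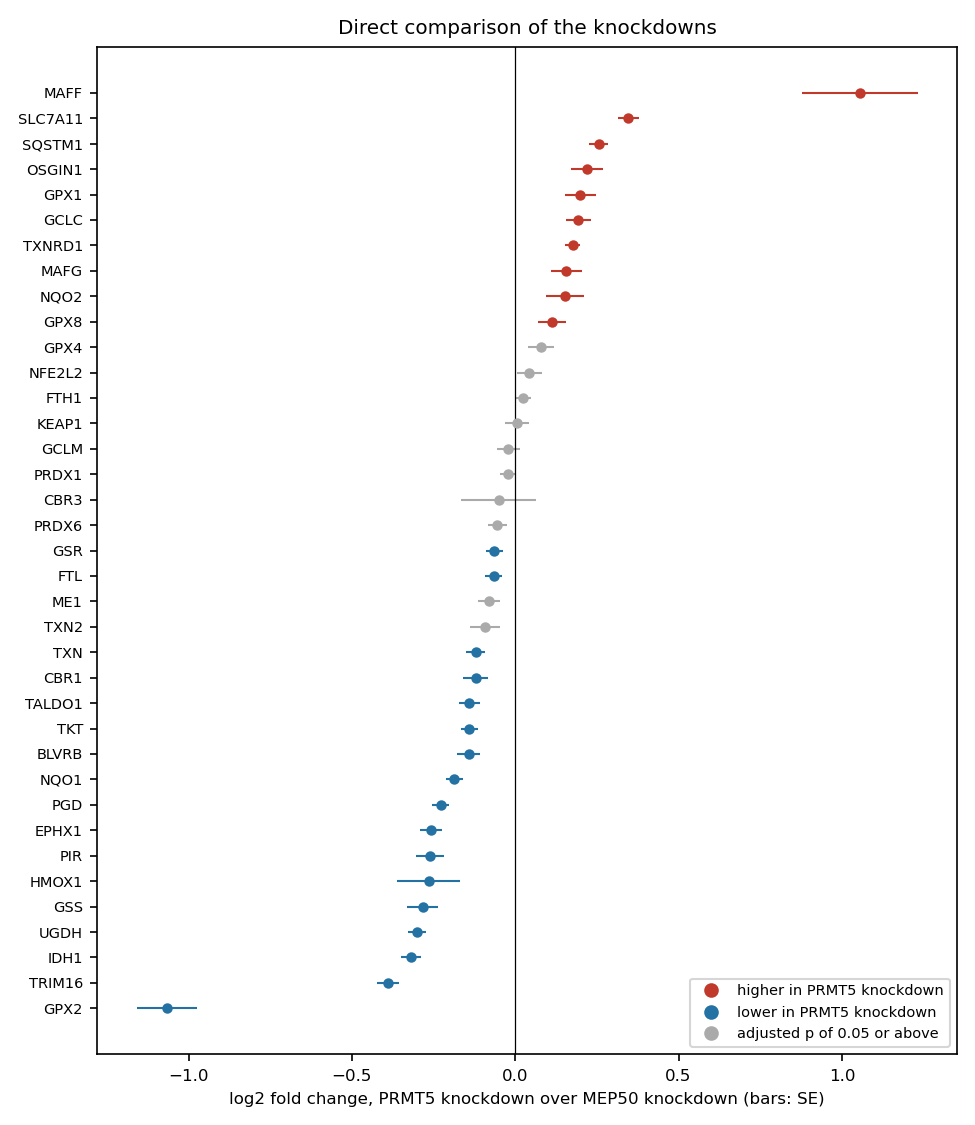
Log2 fold change of the PRMT5 knockdown over the MEP50 knockdown (x axis, bars are SE, n = 3 libraries each) for the 37 tested genes (y axis, ordered by value), coloured by direction where the edgeR adjusted p was below 0.05. GPX2 at -1.07 and MAFF at 1.05 stand at the ends.

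Levels of different genes were compared per length, as TPM over the exon lengths of GENCODE release 29, which may differ from the annotation used for counting. In the GFP control the iron-storage chains led, with FTL at 20067 ± 603 TPM, rank 2 among all genes, and FTH1 at 4266 ± 78.2 TPM, rank 11. PRDX1 (2247 ± 51.5 TPM), PGD (1766 ± 47.4 TPM), NQO1 (1620.4 ± 43.7 TPM) and TXNRD1 (1617 ± 6.55 TPM) followed, all among the first 50 genes. NQO1 and TXNRD1 overlapped between libraries and have no order. After PRMT5 knockdown NQO1 was at 1433 ± 49.2 TPM and TXNRD1 at 1179.7 ± 34.4 TPM, and after MEP50 knockdown NQO1 was at 1615 ± 42.2 TPM and TXNRD1 at 1034 ± 25.2 TPM, so that in the knockdowns NQO1 stood above TXNRD1. NFE2L2 (86.2 ± 2.79 TPM) and KEAP1 (101 ± 1.26 TPM) stood at ranks 28 and 27 among the 39 members, and the stress-induced HMOX1 was low at 29.6 ± 1.61 TPM, rank 34. Per length, KEAP1 exceeded NFE2L2 by more in the knockdowns, where KEAP1 was at 109.9 ± 2.26 TPM and NFE2L2 at 70.8 ± 1.87 TPM after PRMT5 knockdown, and at 108 ± 1.48 and 68.1 ± 1.78 TPM after MEP50 knockdown. GCLM exceeded GCLC in all groups, at 215 ± 17.1 TPM for GCLM and 56.8 ± 0.708 TPM for GCLC in the PRMT5 knockdown, 216 ± 1.60 and 49.2 ± 2.18 TPM in the MEP50 knockdown, and 269.7 ± 11.3 and 43.8 ± 2.73 TPM in the GFP control. GPX2, at 111 ± 0.677 TPM in the GFP control, was within the library ranges of PIR and below GPX1 (169.8 ± 5.61 TPM) and GPX4 (248 ± 11.4 TPM). After PRMT5 knockdown GPX2 was at 19.8 ± 2.92 TPM, the lowest of the 4 measured peroxidases there, and after MEP50 knockdown it was at 40.7 ± 2.93 TPM.

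**Figure D4:**
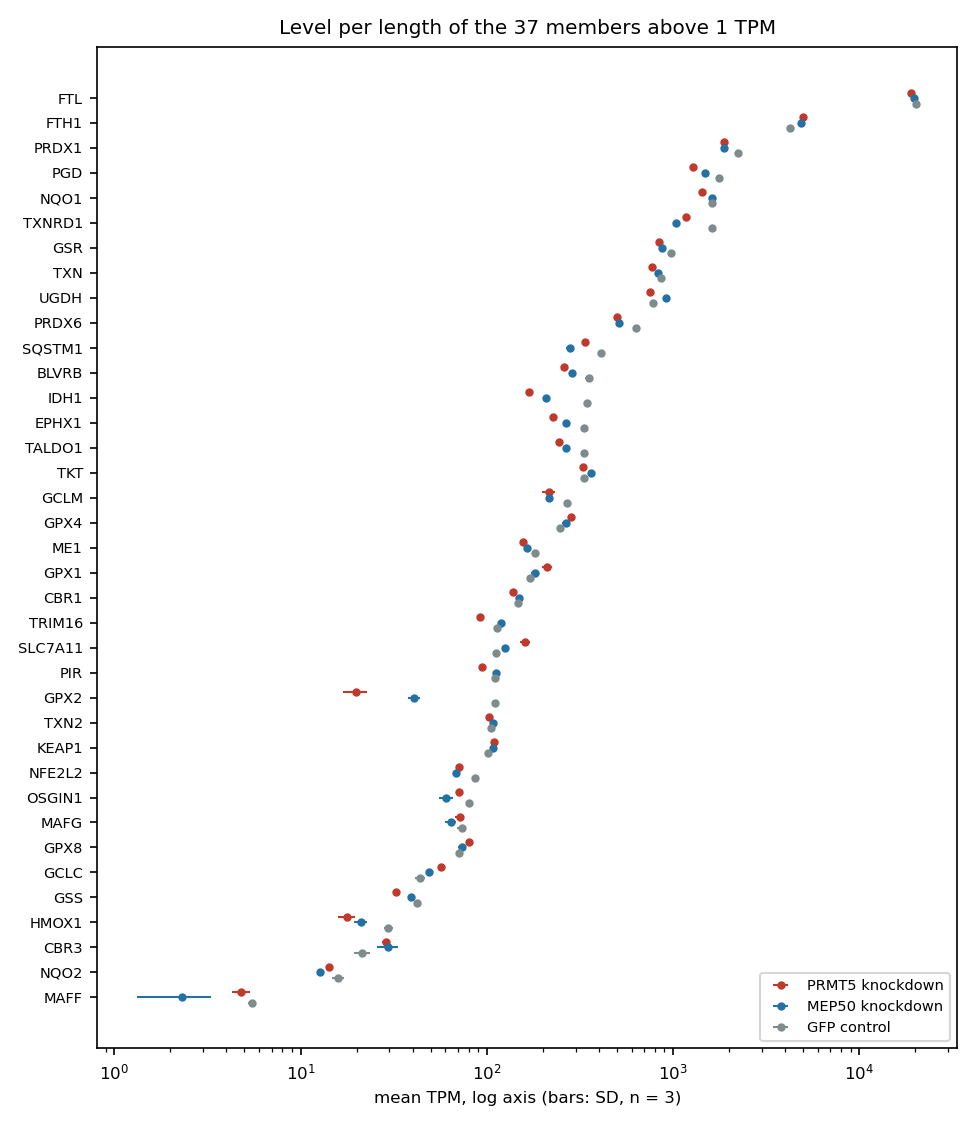
Mean TPM (x axis, log scale, bars are SD, n = 3) of the 37 genes above 1 TPM (y axis, ordered by the GFP control) in the PRMT5 knockdown, the MEP50 knockdown and the GFP control. FTL lies highest and MAFF lowest in every group, and the points of GPX2 lie farthest apart.

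As a share of all reads on genes, the 39 members took 1.92 ± 0.0119% in the PRMT5 knockdown, 1.95 ± 0.0110% in the MEP50 knockdown and 2.13 ± 0.0114% in the GFP control (SD, n = 3). No knockdown library overlapped a control library. Without the ferritin chains FTL and FTH1 the shares were 1.19 ± 0.0156% in the PRMT5 knockdown, 1.22 ± 0.0049% in the MEP50 knockdown and 1.42 ± 0.0065% in the GFP control. The thioredoxin and peroxiredoxin genes took 0.353 ± 0.0059%, 0.329 ± 0.0018% and 0.457 ± 0.0038% in the PRMT5 knockdown, MEP50 knockdown and GFP control. TXNRD1, at 2134 ± 55.6, 1889 ± 34.3 and 2918 ± 36.6 CPM in that order, had by far the most reads of this group and weighs most in its share. NADPH supply took 0.244 ± 0.0030%, 0.275 ± 0.0068% and 0.313 ± 0.0051% in the same groups. The regulators took 0.117 ± 0.0013%, 0.107 ± 0.0038% and 0.137 ± 0.0011%, with every knockdown library below the controls. For the glutathione peroxidases (0.0330 ± 0.0010%, 0.0310 ± 0.0012% and 0.0320 ± 0.00065%) both knockdowns overlapped the control. For the heme and iron genes (0.743 ± 0.0263%, 0.750 ± 0.0067% and 0.725 ± 0.0129%) the PRMT5 knockdown overlapped the control, and the MEP50 knockdown libraries lay just above it. For glutathione supply (0.179 ± 0.0044%, 0.171 ± 0.0017% and 0.184 ± 0.0042%) the PRMT5 knockdown overlapped the control, and the MEP50 knockdown libraries lay below it. For the detoxifying enzymes and others (0.2525 ± 0.0060%, 0.289 ± 0.0018% and 0.279 ± 0.0047%) the PRMT5 knockdown libraries lay below the controls and the MEP50 knockdown libraries above them.

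**Figure D5:**
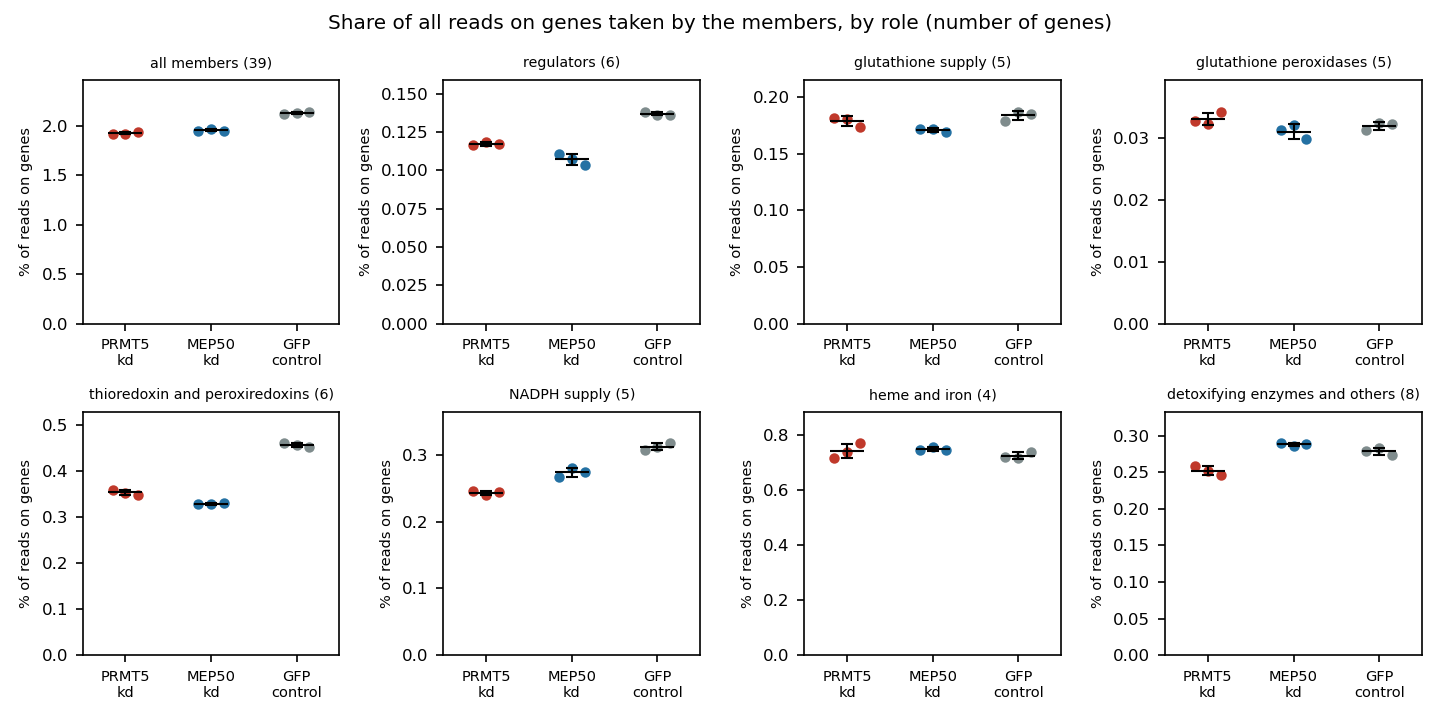
Share of all reads on genes (y axis, percent, from 0) taken by the 39 genes and by each of the 7 role groups in the 3 libraries of PRMT5 knockdown, MEP50 knockdown and GFP control (x axis), with mean and SD (n = 3). All members together took 1.92, 1.95 and 2.13%, and among the 7 role groups the thioredoxin and peroxiredoxin panel shows the widest gap between both knockdowns and the control.

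Other genes of the same pathways were taken from a list of 69 names, of which 66 were matched to an identifier and 63 had enough reads. After PRMT5 knockdown 14 of the 63 were higher and 25 lower (22.2% and 39.7%), and after MEP50 knockdown 16 were higher and 19 lower (25.4% and 30.2%). The background over all genes was 26.1% and 24.9% after PRMT5 knockdown and 26.5% and 25.2% after MEP50 knockdown, so the shares of the list after MEP50 knockdown lay near it. The medians were -0.08 and -0.01 on the log2 scale. CTH, the cystathionine gamma-lyase that makes cysteine from cystathionine, read 3.39, 3.16 and 2.59 CPM in the PRMT5 knockdown, 3.33, 5.61 and 4.05 CPM in the MEP50 knockdown and 19.0, 19.8 and 16.7 CPM in the GFP control. All knockdown libraries were far below the controls (log2 fold change -2.61 ± 0.14 and -2.10 ± 0.13, edgeR adjusted p = 1.25e-19 and 7.06e-17). CBS, the enzyme just before CTH in the same route, was higher, with 77.5 ± 3.90 CPM in the PRMT5 knockdown and 99.9 ± 1.499 CPM in the MEP50 knockdown against 58.0 ± 0.272 CPM in the GFP control, and log2 fold changes of 0.42 and 0.78. MAFK, the third small MAF partner of NRF2, fell to 54.0 ± 0.757 CPM in the PRMT5 knockdown and 48.3 ± 4.13 CPM in the MEP50 knockdown, against 120.5 ± 7.66 CPM in the GFP control (-1.16 ± 0.049 and -1.32 ± 0.051, edgeR adjusted p = 1.08e-21 and 4.88e-23). NFE2L3, a relative of NRF2, rose to 38.5 ± 3.40 CPM in the PRMT5 knockdown and 28.9 ± 0.733 CPM in the MEP50 knockdown, against 20.4 ± 0.657 CPM in the GFP control. NFE2L1, another relative, was lower in both (-0.10 ± 0.030 and -0.36 ± 0.031, edgeR adjusted p = 0.00423 and 5.88e-13). The ubiquitin ligase parts that act on NRF2, CUL3 and BTRC, were among the largest rises after PRMT5 knockdown (log2 fold change 0.52 ± 0.036 and 0.47 ± 0.061). Both also rose after MEP50 knockdown (0.42 ± 0.037 and 0.44 ± 0.062, edgeR adjusted p = 1.46e-12 and 1.23e-07). Not all parts of such ligases rose. FBXW11, the relative of BTRC, and SYVN1 were lower after PRMT5 knockdown (-0.16 and -0.17, edgeR adjusted p = 0.000734 and 0.0271). They were also lower after MEP50 knockdown (-0.17 and -0.41, adjusted p = 0.000298 and 2.45e-06). DCAF11 was not called after PRMT5 knockdown (-0.09 ± 0.054, adjusted p = 0.149) or MEP50 knockdown (0.06 ± 0.054, adjusted p = 0.352). RBX1 was not called after PRMT5 knockdown (0.55 ± 0.31, adjusted p = 0.139) or MEP50 knockdown (0.0054 ± 0.33, adjusted p = 0.99). It had only 24 to 81 reads per library in the PRMT5 knockdown, too few to tell whether it rose. Catalase, CAT, which removes hydrogen peroxide in peroxisomes, fell to 105 ± 3.36 CPM in the PRMT5 knockdown and 123 ± 3.16 CPM in the MEP50 knockdown, against 175 ± 0.899 CPM in the GFP control. The methionine sulfoxide reductase MSRB3 rose (0.52) and the lipase ABHD4 fell (-0.63) after PRMT5 knockdown. Both moved the same way after MEP50 knockdown (0.18 and -0.49, edgeR adjusted p = 0.00412 and 1e-12). After MEP50 knockdown the further named changes were rises of CHAC1, which degrades glutathione (0.62 ± 0.15), and of mitochondrial IDH2 (0.50), and a fall of the iron exporter SLC40A1 (-0.86 ± 0.098). IDH2 also rose and SLC40A1 also fell after PRMT5 knockdown (0.27 and -0.49, edgeR adjusted p = 0.00275 and 2.02e-05). CHAC1 read 7.44, 11.1 and 11.1 CPM in the MEP50 knockdown and 4.87, 6.37 and 8.08 CPM in the GFP control, so single libraries overlapped. CHAC1 was lower after PRMT5 knockdown (-0.61 ± 0.16, edgeR adjusted p = 0.00233), and the direct difference between the knockdowns was -1.23 ± 0.16 (1.17e-07).

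The authors' deposited tables of each knockdown against the control list 30 of the members for PRMT5 knockdown (8 higher, 22 lower) and 28 for MEP50 knockdown (9 higher, 19 lower). Every member in the authors' deposited tables had the same direction here, with edgeR log2 fold changes within 0.0009 for PRMT5 knockdown and within 0.0092 for MEP50 knockdown. FTL after PRMT5 knockdown and GPX1 after MEP50 knockdown were called here and are not in the authors' deposited tables. Some members share exon sequence with a neighbour in GENCODE release 29, and the strand setting of the counting was not given in the sources used here, so their counts are less certain. On the opposite strand these are FTH1 with BEST1 (62.4% of its exon length), CBR3 with CBR3-AS1 (42.2%), PRDX1 with MMACHC (24.9%) and SQSTM1 with MRNIP (20.7%), and on the same strand TRIM16 with AC005324.3 (23.5%) and NFE2L2 with AC019080.1 (17.6%).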

How the data were processed

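RNA of 9 A549 libraries was sequenced with a stranded protocol after rRNA depletion, per the labels' protocols. The authors' deposited count table holds raw read counts by Ensembl identifier, made with Trim Galore, STAR and HTSeq on hg19, per the submitters' processing notes. The versions, the annotation and the strand setting are not given in the sources used here. Both comparison tables that the authors deposited hold, per the file headers, log2 fold changes from DESeq2 and edgeR with an adjusted p-value and an FDR, and all their rows lie below 0.05.

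The table held 51796 genes, 26748 with a read, and the 5 HTSeq summary lines were not used. Genes were tested with edgeR 4.0.16 (R 4.3.3) in 1 fit of 9 libraries on group alone, after filterByExpr and TMM scaling (factors between 0.99 and 1.01), by a robust quasi-likelihood test with Benjamini-Hochberg adjustment over 14582 genes and calls at 0.05. Each SE is the size of the log2 fold change divided by the root of its F statistic. The biological coefficient of variation was 0.0395, replicate pairs differed by 3.3 to 4.61 times the variance of counting (as chi-square over its degrees of freedom). The code was tested on simulated data.

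Libraries were grouped by their labels. The members and lists were chosen with earlier results of these data known. Values in every library are given for members called with an absolute log2 fold change of at least 0.5 and for NFE2L2, KEAP1, NQO1, GCLC, GCLM, TXNRD1, SLC7A11 and HMOX1. Of the other pathway genes, up to 4 rises and 4 falls per knockdown are named, and any further ones were chosen after their values were seen. SRXN1, TXNIP and NCOA4 were not matched to an identifier. The alternatives changed the scaling (RLE, upper quartile, library totals), the tool (DESeq2 1.42.0) or the filter, or used a replicate block, fits of 6 libraries, fits without 1 library, or longest-transcript lengths for TPM.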

Additional observations from a re-analysis of the deposited data

Results flagged for a closer look

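TRIM16 stands out because its changes point in opposite directions in the knockdowns. It averaged 139 ± 1.31 CPM in the PRMT5 knockdown and 183 ± 6.44 CPM in the MEP50 knockdown (SD, n = 3 each), against 172 ± 4.01 CPM in the GFP control. The difference between the knockdowns was tested directly, with a log2 fold change of -0.3899 for PRMT5 knockdown over MEP50 knockdown (edgeR adjusted p = 1.5e-12), and every PRMT5 knockdown library lay below every MEP50 knockdown library. The fall after PRMT5 knockdown was called under every alternative run, whereas the rise after MEP50 knockdown was not. TRIM16 shares 23.5% of its exon length with a protein-coding neighbour on the same strand, and the part of that neighbour in the counts was not tested.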

How the results depend on the processing

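The counts of members called moved little under the 17 alternatives. After PRMT5 knockdown 23 to 24 members were lower under other scalings, filters, tools and fits, and 22 to 24 when 1 library was left out, with 7 to 8 higher. After MEP50 knockdown 19 were lower under every alternative, with 7 to 10 higher. Between the knockdowns 15 to 18 were lower under other settings and 14 to 18 with 1 library left out, and 9 to 11 and 7 to 10 were higher. Signs changed in these results alone, none of them called. TKT after PRMT5 knockdown (log2 fold change 0.0017) was -0.0047 with RLE, -0.0074 with upper-quartile scaling, -0.0048 with DESeq2, -0.0063 without a filter, -0.0044 with a filter at 1 CPM, -0.0040 in a fit of 6 libraries and -0.0187 to 0.0103 with 1 library left out. NQO1 after MEP50 knockdown (0.0128) was -0.0018 with upper-quartile scaling, -0.0010 with library totals and -0.0054 without a filter. With 1 library left out, MAFG after PRMT5 knockdown ran over -0.0759 to 0.0164, and FTL after MEP50 knockdown over -0.0284 to 0.0196. Between the knockdowns, KEAP1 ran over -0.0174 to 0.0165, GCLM over -0.0617 to 0.0298 (0.0007 with library totals), FTH1 over -0.0107 to 0.0461 and CBR3 over -0.1501 to 0.0340. Apart from the construction of each alternative (fewer libraries, other genes kept), the cause of these shifts was not tested. Same-numbered libraries of different groups deviated together with correlations of -0.036 to 0.052, so the numbers do not pair the samples. With a replicate block 1 member call was lost, GSR between the knockdowns (-0.0644, edgeR adjusted p = 0.0609), and no other changed. Ranks by TPM moved by up to 6 places for 25 members with longest-transcript lengths. Depth limits MAFF, GPX2, HMOX1 and CBR3 most among the tested members, and GPX3 and PRDX2 could not be measured.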

Other observations

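TXNRD1, GPX1, GPX2 and GPX4 are selenoproteins, whose synthesis needs a dedicated machinery to read UGA as selenocysteine. Of 5 genes of this machinery, 3 were lower after PRMT5 knockdown and 2 after MEP50 knockdown, and none was higher, where the background of lower genes was 24.9% and 25.2%, so the count after MEP50 knockdown is near what so few genes would hold at that share. SECISBP2, which binds the selenocysteine insertion element of these transcripts, averaged 41.5 ± 2.16 CPM in the PRMT5 knockdown and 27.6 ± 0.664 CPM in the MEP50 knockdown, against 46.6 ± 1.38 CPM in the GFP control. Its log2 fold change was -0.17 ± 0.056 after PRMT5 knockdown and -0.76 ± 0.059 after MEP50 knockdown (edgeR adjusted p = 0.012 and 4.38e-14), and the direct difference of 0.59 ± 0.060 passed the test (1.16e-10). The 4 selenoproteins themselves did not move together, since TXNRD1 and GPX2 fell and GPX1 and GPX4 rose.

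Some further values of the pathway were picked after they were seen. TRIM16L, a gene with a sequence close to TRIM16, showed the same opposite directions, at 204 ± 3.22 CPM in the PRMT5 knockdown, 266 ± 4.28 CPM in the MEP50 knockdown and 231 ± 2.83 CPM in the GFP control. Its log2 fold changes were -0.18 ± 0.029 and 0.20 ± 0.029 (edgeR adjusted p = 2.88e-06 and 1.73e-07), and reads shared between the pair were not tested. BACH1, the repressor that competes with NRF2 for the same elements, was lower in both knockdowns (-0.47 ± 0.048 and -0.42 ± 0.049, edgeR adjusted p = 6.4e-11 and 1.62e-09). The transferrin receptor TFRC fell more after MEP50 knockdown (-0.50 ± 0.029) than after PRMT5 knockdown (-0.10 ± 0.029), with a direct difference of 0.39 ± 0.029 (edgeR adjusted p = 2.5e-14).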
